A study of Xenopus tropicalis with 24 samples.

Results

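The skeletal muscle contractile genes are 46 genes that encode the sarcomere of skeletal muscle, the proteins that couple it to calcium release and its energy supply. They were chosen by name from a list of 46 symbols, each matched with or without a numbered suffix. That rule uses no measured value, but the list was drawn up with earlier results of these data known. Of these symbols 44 had a gene in the count table, 2 of them (*des* and *tnni1*) had 2 genes each, and *myh1* and *mb* had none there. The 46 genes stand among 26531 in all.

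The sarcomere is a lattice of thin filaments of actin, tropomyosin and troponin and thick filaments of myosin. Thin filaments are anchored at the Z-disc, thick filaments are held together at the M-band, and titin spans from one to the other. A nerve impulse opens calcium channels of the muscle membrane and the sarcoplasmic reticulum, calcium binds troponin C, and myosin heads then pull on actin at the cost of ATP. In the tadpole tail, blocks of such muscle flank the notochord and spinal cord for swimming, and they are lost with the tail at metamorphosis. Many of these proteins exist as paralogs typical of fast, slow, cardiac or developing muscle, a naming that comes mostly from mammals.

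Tails of *Xenopus tropicalis* tadpoles were amputated, and RNA was taken from the regenerated tissue with a strip of the original tail next to the cut. The tadpoles were wild-type (WT) or lacked both thyroid hormone receptors, TRα and TRβ (TRDKO, bred from TRα(-/-)β(+/-) frogs), and were at stage 56, before metamorphosis, or at stage 61, its climax. The 4 groups WT56, TRDKO56, TRDKO61 and WT61 were each sampled at 0, 6 and 24 h post amputation (hpa). That makes 12 conditions of 2 libraries. The libraries of poly-A-selected RNA are described as biological replicates made from several tadpoles, but it is not said which tadpoles went into which library. The p-values thus measure the spread between the 2 libraries of a condition, pooled over the conditions of a fit. Part of that spread may be technical.

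Libraries held 3956148 to 20731438 counts, the fewest in replicate 2 of WT56 at 0 hpa, and the 46 genes took 165179 to 654779 of them. CPM are the counts of a gene per 1000000 counts of its library, with library sizes scaled by the TMM method over all 24 libraries, and serve for comparing 1 gene between samples. RPKM divide these by gene length and are used to compare genes. Each test is the two-sided quasi-likelihood test of edgeR with 2 libraries against 2, adjusted over all genes tested with the method of Benjamini and Hochberg (FDR). A gene is called changed at an FDR under 0.05 and an absolute log2 fold change (log2 FC) over 1, and the SE of a log2 FC follows it. The genes that lead a comparison were named for a large log2 FC, a mean of at least 10 CPM and libraries that do not overlap, so separate libraries are given for them as a description. An exact permutation test of 2 against 2 libraries cannot give a p under 0.333. The median log2 FC of all genes tested lay between -0.04 and 0.03 in every comparison, against which the medians of the muscle genes can be read. The targeted receptor genes *thra* and *thrb* were read in every TRDKO library (5.87 to 10.6 CPM for *thra* and 13.7 to 112 CPM for *thrb*), and since the TRβ allele carries a short deletion, counts over the whole gene do not check the genotype. Markers of epidermis, leukocytes, neural tissue, notochord and cartilage, fibroblasts and endothelium were all read beside those of muscle, as in a whole piece of tail.

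Some conditions had libraries that stood apart in their muscle content. For the counts of called members, values or ranges with 1 library left out are given below. The make-up of gene families is not given without these libraries. At 24 hpa in TRDKO61 the share of counts taken by the 46 genes was 1.99 times as large in replicate 2 as in replicate 1. At 6 hpa it was 1.46 times as large in replicate 1 as in replicate 2 in TRDKO61 and 1.42 times as large in WT61. At 24 hpa in WT61 replicate 2 had 1.33 times the share of replicate 1, and in the other 8 conditions the higher library had 1.03 to 1.21 times the lower.

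The muscle genes took a few percent of all counts, and their share was lower at 24 hpa than at 0 hpa in every library of WT56, TRDKO56, WT61 and TRDKO61. In WT56 they took 4.28% and 5.19% of the counts of the 2 libraries at 0 hpa, 4.89% and 5.74% at 6 hpa, and 1.71% and 1.58% at 24 hpa. In TRDKO56 the shares were 3.597% and 3.24%, then 3.96% and 3.56%, and 1.28% and 1.195% at 24 hpa. At stage 56 the libraries of 24 hpa thus lay apart from those of both earlier time points.

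At stage 61 the starting shares were lower and the libraries of 6 and 24 hpa were less separate. In WT61 the shares were 3.12% and 3.02% at 0 hpa, 2.92% and 2.06% at 6 hpa, and 1.32% and 1.75% at 24 hpa. In TRDKO61 they were 1.96% and 2.05% at 0 hpa, 1.90% and 1.30% at 6 hpa, and 0.967% and 1.92% at 24 hpa, so its 24 hpa libraries spanned the range of 6 hpa. The 95% Wilson interval of a share reached at most 0.022 percentage points to either side, which covers counting error only. The piece sampled held any regenerated tissue beside the strip of original tail, so its make-up may differ between time points. In such bulk samples fewer muscle cells, less RNA per muscle cell and more tissue of other kinds cannot be told apart.

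Another 70 genes of muscle outside the list, such as *tcap* and *myot* of the Z-disc, were read beside them. Their summed share was likewise lower at 24 hpa, going from 0.624% and 0.629% at 0 hpa to 0.226% and 0.220% at 24 hpa in WT56, and from 0.275% and 0.314% to 0.200% and 0.257% in TRDKO61.

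**Figure D1:**
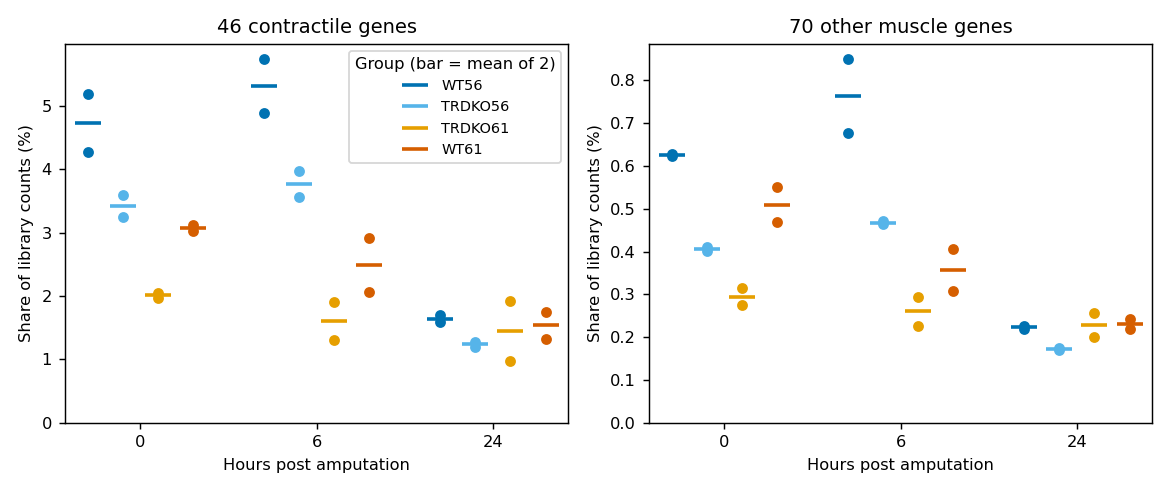
Percent of each library's counts (y axis) taken by the 46 muscle contractile genes (one panel) and by 70 other muscle genes (the other panel) in the 12 conditions (x axis). Each dot is a library and each bar the mean of 2. WT56 held 4.28% to 5.74% at 0 and 6 hpa and 1.58% to 1.71% at 24 hpa, while the TRDKO61 libraries of 24 hpa lay at 0.967% and 1.92%.

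Among the members, creatine kinase M (*ckm*), which buffers ATP in muscle, had the highest level per length, a mean of 3647 RPKM over the 24 libraries. The regulatory light chain of fast myosin (*mylpf*) followed at 1722 RPKM and cardiac α-actin (*actc1*), also the main sarcomeric actin of embryonic frog muscle, at 1711 RPKM. The next levels per length were 1091 RPKM for *myl2*, a slow or cardiac light chain, 1021 RPKM for fast troponin T (*tnnt3*), and 979 RPKM for *tnni1.2*, a troponin I. Counts were highest at 6 hpa in WT56 for 30 of the 46 members, by the mean of the condition, and lowest at 24 hpa in TRDKO56 for 19.

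In the thin filament, all 12 members were detected in every library. Skeletal α-actin (*acta1*) ran from 42.4 to 1128 CPM over the 24 libraries, *actc1* from 290 to 4565 CPM, and nebulin (*neb*), the giant protein along the thin filament, from 68.2 to 950 CPM. Tropomyosins, which block myosin sites on actin at rest, ran from 608 to 4450 CPM for *tpm1* and from 122 to 1294 CPM for *tpm2*. Troponin C, the calcium sensor, ran from 241 to 2672 CPM for the slow and cardiac form *tnnc1* and from 69.3 to 1628 CPM for the fast form *tnnc2*.

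Troponin T, which ties troponin to tropomyosin, ran from 522 to 4121 CPM for the fast form *tnnt3* and from 4.73 to 52.0 CPM for the slow form *tnnt1*. Troponin I, the inhibitory subunit, has 3 genes here. The range was 21.8 to 1364 CPM for the fast form *tnni2*, 8.89 to 50.4 CPM for *tnni1* and 427 to 3042 CPM for *tnni1.2*. Relative to its lowest value, *tnni2* spanned the widest range of the 3.

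In the thick filament, light chains were abundant and the heavy chains of the list were dominated by 1 gene. The light chains ran from 232 to 4112 CPM for *mylpf*, from 252 to 3244 CPM for *myl1*, the essential light chain of fast muscle, and from 223 to 2237 CPM for *myl2*. The ventricular and slow essential light chain *myl3* stayed between 0 and 3.95 CPM. Myosin-binding protein C, which links thick to thin filaments, ran from 17.3 to 164 CPM for the slow form *mybpc1* and from 1.73 to 337 CPM for the fast form *mybpc2*.

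Myosin heavy chains are the motors of the thick filament. Of the 7 heavy chain genes in the list, *myh6* ran from 245 to 3890 CPM. It made up 77.7% to 96.0% of their summed RPKM in every library. Heavy chain genes outside the list are not in that sum. The others ran from 16.3 to 710 CPM for *myh3*, from 5.57 to 110 CPM for *myh2*, from 3.01 to 129 CPM for *myh13*, from 0.0911 to 6.93 CPM for *myh7* and from 0 to 6.02 CPM for *myh8*. For *myh4* there was 1 count in the 24 libraries together. The names come from mammalian genes and say little on fibre type in the frog.

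In UCB_Xtro_10.0, *myh7*, *myh13* and *myh3* lie in 1 stretch of chromosome 10, on the minus strand at 50254953 to 50270845, 50305907 to 50322188 and 50331258 to 50356157. Whether other genes lie between them was not looked at. *myh6* lies on chromosome 1 at 139772262 to 139797916, and *myh2*, *myh8* and *myh4* lie apart on chromosome 8, at 748099 to 760296, 34943187 to 34955196 and 103811615 to 103826513. Heavy chain genes resemble each other in sequence, and how reads that fit several of them were counted is not stated.

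Among Z-disc and scaffold genes, titin (*ttn*), the spring that spans the sarcomere from Z-disc to M-band, ran from 388 to 3817 CPM. The actinins that cross-link actin at the Z-disc ran from 184 to 2177 CPM for *actn3* and from 3.79 to 47.8 CPM for *actn2*. The Z-disc adaptors ran from 1.15 to 110 CPM for *myoz1*, from 26.7 to 518 CPM for *myoz2* and from 49.1 to 478 CPM for *ldb3*. The myomesins of the M-band ran from 8.01 to 239 CPM for *myom1* and from 12.2 to 461 CPM for *myom2*, and the intermediate filament desmin from 307 to 2513 CPM for *des.1* and from 6.20 to 512 CPM for *des.2*.

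For calcium and coupling, the calcium pump *atp2a1* ran from 128 to 2445 CPM, the release channel *ryr1* from 29.6 to 160 CPM, the voltage sensor subunits *cacna1s* from 32.3 to 175 CPM and *cacng1* from 14.6 to 67.8 CPM, and the calcium store protein *casq1* from 4.85 to 95.8 CPM. The calcium buffer parvalbumin, as the gene named *pvalb*, had at most 5 counts in any library. For energy, *ckm* ran from 2226 to 12664 CPM, the glycogen phosphorylase *pygm* from 34.6 to 434 CPM and the muscle enolase *eno3* from 107 to 2163 CPM. The ubiquitin ligase *trim63*, which marks sarcomere proteins for breakdown, ran from 45.7 to 354 CPM, and *smyd1*, needed for sarcomere assembly, from 4.60 to 51.4 CPM. Because *myh4* and *pvalb* fell under the filter on low counts, 44 members were tested.

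**Figure D2:**
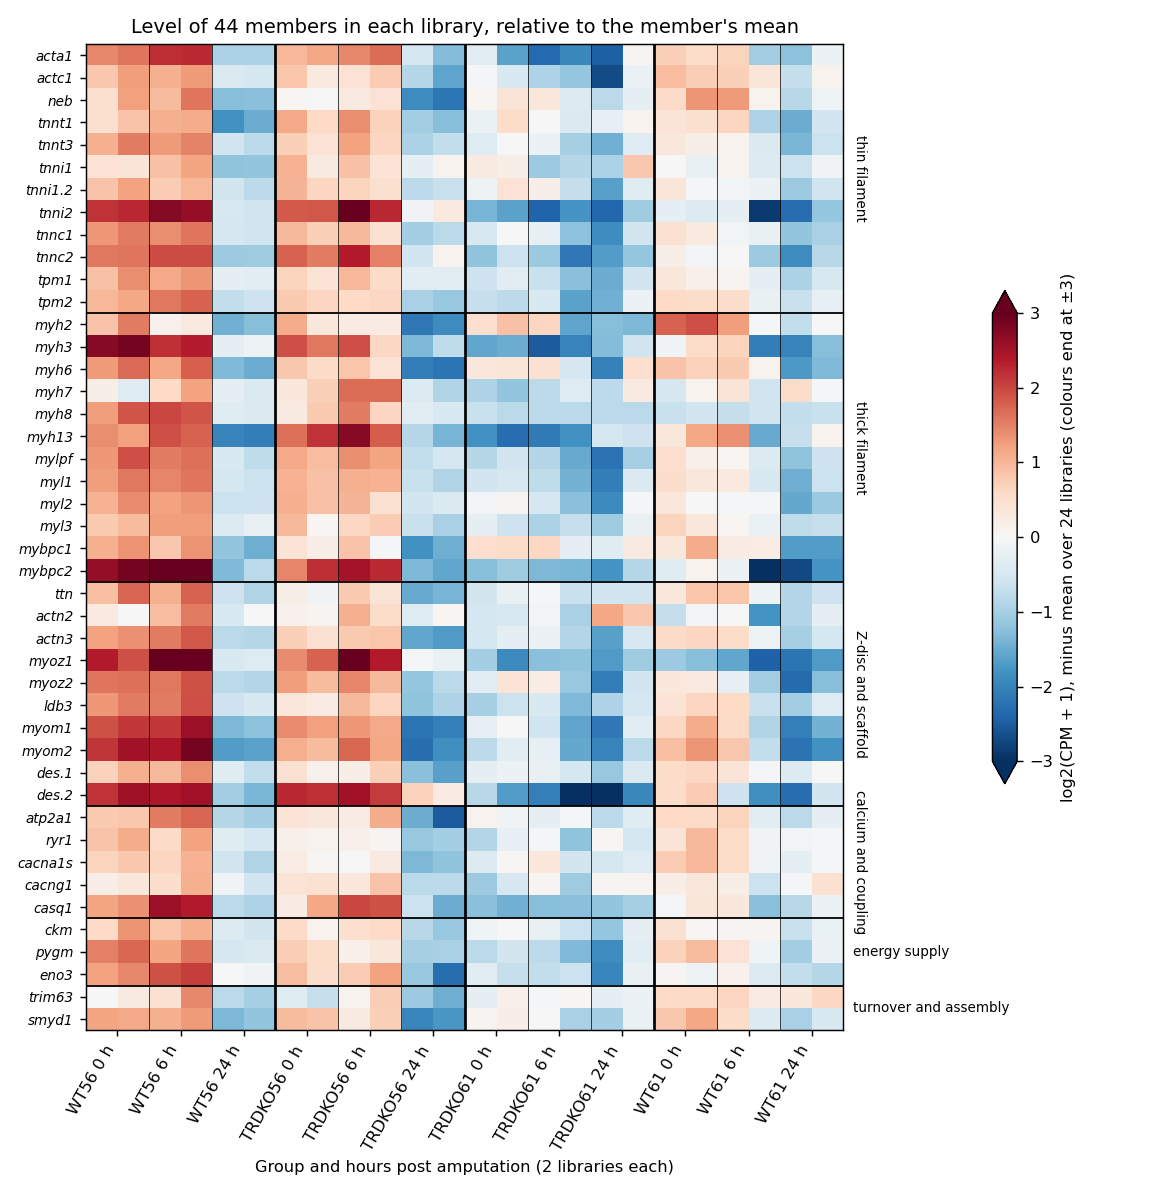
Level of the 44 members tested (rows, by role) in each of 24 libraries (columns, by group and time), as log2(CPM + 1) minus the gene's mean over all libraries. Colours end at plus and minus 3. The 24 hpa libraries of WT56 and TRDKO56 are low in nearly all rows, and the 6 hpa libraries of WT56 hold the highest mean of 30 of the 46 members.

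The first 6 h ask how muscle genes stand during wound healing. Few members were called changed, and the called ones were higher at stage 56 and lower at stage 61. In WT56, 1 of 44 members rose and none fell (median log2 FC 0.32), beside 4.69% of all genes called higher and 4.51% lower. In TRDKO56, 3 rose and none fell (median 0.20), beside 5.11% called higher and 3.93% lower. In TRDKO61, 3 fell and none rose (median -0.32), beside 3.65% called lower and 5.34% higher, and in WT61, 1 fell and none rose (median -0.40), beside 1.71% and 2.26%. At 1 or 3 of 44, the members' counts were near the shares of all genes.

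Myozenin 1, which ties calcineurin and actinin at the Z-disc, was the member that rose at stage 56 in both genotypes. In WT56 *myoz1* stood at 58.9 and 43.2 CPM at 0 hpa and at 110 and 96.5 CPM at 6 hpa, a log2 FC of 1.0007 (SE 0.25, FDR 0.029 with edgeR). In TRDKO56 it stood at 30.2 and 38.5 CPM and then at 110 and 59.3 CPM (log2 FC 1.30, SE 0.33, FDR 0.029). The libraries of the 2 time points did not overlap in either genotype. The WT56 call sits at the fold limit, and it was lost with any of the 4 libraries left out (FDR 0.0823 to 0.202). The TRDKO56 call was lost without replicate 1 or 2 at 0 hpa or replicate 1 at 6 hpa (highest FDR 0.201).

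Calsequestrin, the calcium store of the sarcoplasmic reticulum, also rose in TRDKO56. *casq1* stood at 18.5 and 36.0 CPM at 0 hpa and at 65.4 and 60.9 CPM at 6 hpa (log2 FC 1.196, SE 0.26, FDR 0.013), and the call was lost without replicate 1 at 0 hpa or replicate 2 at 6 hpa (highest FDR 0.0852). The heavy chain *myh7* rose there from 2.10 and 3.13 CPM to 6.93 and 6.92 CPM (log2 FC 1.38, SE 0.39, FDR 0.038). Without replicate 1 of TRDKO56 at 0 hpa no member was called, and without replicate 2 only 1.

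At stage 61, *des.2*, a desmin, fell in both genotypes. In WT61 it stood at 129 and 148 CPM at 0 hpa and at 56.1 and 23.7 CPM at 6 hpa (log2 FC -1.77, SE 0.34, FDR 0.023). In TRDKO61 it stood at 48.5 and 26.5 CPM and then at 20.3 and 9.05 CPM (log2 FC -1.35, SE 0.39, FDR 0.046), again without overlap. In TRDKO61 *acta1* fell from 191 and 77.4 CPM to 46 and 61.4 CPM (log2 FC -1.29, SE 0.35, FDR 0.037), and *tnni1* from 26.3 and 24.5 CPM to 9.62 and 11.49 CPM (log2 FC -1.24, SE 0.27, FDR 0.015).

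These stage 61 calls rest on single libraries. In TRDKO61 no member was called without replicate 1 at 0 hpa, 1 without replicate 2 at 6 hpa and 7 without replicate 1 at 6 hpa. In WT61 none was called without either library of 0 hpa, and 17 fell without replicate 1 at 6 hpa. Of 13 leukocyte markers, 11 rose in TRDKO61, 9 in TRDKO56, 8 in WT56 and 3 in WT61, and none was called lower. Their summed share went from 0.0376% and 0.0321% to 0.0655% and 0.0856% in WT56 and from 0.0525% and 0.0489% to 0.152% and 0.201% in TRDKO61. Of 8 markers of notochord and cartilage, 4 fell in WT61 (median log2 FC -1.64) and 4 in TRDKO61 (median -1.33). At stage 56, 1 of them fell in TRDKO56 and none in WT56. Of 7 fibroblast markers, 3 fell in TRDKO61 and 1 in TRDKO56. None of either list rose. The part of these tissues in the muscle values was not tested. Of the 70 other muscle genes, 6 fell and 1 rose in WT61, and 1 fell and 4 rose in TRDKO61. At stage 56, 3 fell and 7 rose in WT56, and 2 fell and 7 rose in TRDKO56.

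Between 6 and 24 hpa, when the blastema forms, nearly the whole sarcomere fell at stage 56. In WT56, 43 of the 44 members fell and none rose (median log2 FC -2.39), beside 7.23% of all genes called lower and 5.99% higher. In TRDKO56, 37 fell and none rose (median -2.22), beside 6.84% and 5.7%. The remaining member in WT56 was *actn2* (log2 FC -1.57, SE 0.56, FDR 0.078). By role, the genes that fell in WT56 were 12 of 12 of the thin filament, 12 of 12 of the thick filament, 9 of 10 of the Z-disc and scaffold, 5 of 5 of calcium and coupling, 3 of 3 of energy supply and 2 of 2 of turnover and assembly.

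Among members with a mean of at least 10 CPM, the largest falls were in the fast myosin-binding protein, the M-band and a heavy chain. In WT56 *mybpc2* went from 331 and 337 CPM at 6 hpa to 10.3 and 15.1 CPM at 24 hpa (log2 FC -4.74, SE 0.91, FDR 0.010). *myom2* went from 340 and 461 CPM to 18.8 and 19.8 CPM (log2 FC -4.40, SE 0.51, FDR 0.0018). *myh13* went from 73.3 and 65.5 CPM to 3.87 and 3.61 CPM (log2 FC -4.24, SE 0.88, FDR 0.014). At 24 hpa *myh13* was thus down to a few CPM, and the other 2 to between 10 and 20 CPM.

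*myoz1* followed, from 110 and 96.5 CPM to 7.46 and 7.87 CPM (log2 FC -3.78, SE 0.30, FDR 0.00087), and *myom1*, from 176 and 239 CPM to 15.1 and 16.3 CPM (log2 FC -3.75, SE 0.49, FDR 0.0028). The smallest fall called was that of the calcium channel subunit *cacng1*, from 46.4 and 67.8 CPM to 29.7 and 21.2 CPM (log2 FC -1.20, SE 0.34, FDR 0.037). *ckm*, the most abundant member, fell from 8939 and 10379 CPM to 3737 and 3376 CPM (log2 FC -1.47, SE 0.20, FDR 0.0029). By the same rule, these first 5 genes also led in TRDKO56.

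In TRDKO56 *mybpc2* went from 159 and 132 CPM to 10.1 and 8.60 CPM (log2 FC -3.99, SE 0.31, FDR 0.0013). The log2 FC was -3.63 for *myom2* (SE 0.56), -3.63 for *myh13* (SE 0.34), -3.51 for *myom1* (SE 0.61) and -3.17 for *myoz1* (SE 0.34). The 7 members not called there were *myl3*, *actc1*, *tnni1.2*, *myl2*, *pygm*, *actn2* and *tnni1*, with log2 FC from -3.50 to -0.78. *actc1* was 2518 and 3182 CPM at 6 hpa and 1035 and 624 CPM at 24 hpa (log2 FC -1.81, SE 0.67, FDR 0.089).

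Leaving out 1 library lowered these counts. In WT56 the count was 25 without replicate 2 at 24 hpa and up to 39 otherwise, and the call of *mybpc2* was lost with 3 of the 4 libraries left out in turn (highest FDR 0.0852), that of *myh13* with each of the 4 (FDR 0.0667 to 0.106). In TRDKO56 it was 16 without replicate 1 and 15 without replicate 2 at 24 hpa, 23 without replicate 2 at 6 hpa and 25 without replicate 1 at 6 hpa. The calls of *myom2* and *myom1* in TRDKO56 were lost without either library of 24 hpa (highest FDR 0.0545 and 0.0739).

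Other tissue markers moved at that step too, among them neural genes (6 of 11 lower in WT56, 7 in TRDKO56). Of 9 genes of notochord and cartilage, 5 were lower and 1 higher in WT56, and 3 were lower and none higher in TRDKO56. Of 7 fibroblast markers, 3 were lower in WT56 and none in TRDKO56. Of 11 epidermal markers, 2 were lower in WT56 and 1 in TRDKO56. The summed share of notochord and cartilage genes was 0.0717% and 0.0650% at 6 hpa in WT56 and 0.0273% and 0.0233% at 24 hpa, and that of epidermis was 0.674% and 0.645% against 0.426% and 0.486%. Their part in the fall of the muscle genes was not tested. Of the other 70 muscle genes, 54 of 69 tested fell in WT56 (median log2 FC -1.95) and 51 of 70 in TRDKO56 (median -1.90).

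At stage 61 few members were called at the same step. In WT61, 3 of 44 fell and none rose (median -0.77), beside 0.442% of all genes called lower and 0.872% higher. Called or not, 40 of the 44 had a negative log2 FC and 4 a positive one. Of the 70 other muscle genes, 10 of 69 tested fell and none rose in WT61 (median -0.67). In TRDKO61 1 of 70 fell and none rose (median -0.16). All 3 members called in WT61 belong to the thick filament. *myh6*, the main heavy chain of the list, went from 1955 and 1223 CPM to 341 and 448 CPM (log2 FC -2.01, SE 0.30, FDR 0.033). *mybpc1* went from 76.0 and 74.1 CPM to 19.3 and 19.1 CPM (log2 FC -1.96, SE 0.19, FDR 0.019), and *myl2* from 810 and 823 CPM to 288 and 386 CPM (log2 FC -1.27, SE 0.17, FDR 0.028). The libraries of each gene were separate between the time points. None was called without replicate 1 or without replicate 2 at 24 hpa, and 8 were called without replicate 2 at 6 hpa, the library with less muscle RNA.

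In TRDKO61, 2 members rose and none fell (median -0.01), beside 1.66% of all genes called higher and 1.19% lower. *actn2*, the actinin of slow and cardiac muscle in mammals, went from 14.7 and 7.41 CPM to 35.8 and 28.1 CPM (log2 FC 1.56, SE 0.34, FDR 0.044), a call lost with any of the 4 libraries left out (FDR 0.0561 to 0.177). *myh13* went from 3.51 and 4.58 CPM to 12.6 and 11.7 CPM (log2 FC 1.59, SE 0.35, FDR 0.044). Both were separate between the time points. None was called without replicate 1 at 24 hpa or replicate 1 at 6 hpa, and 1 was called without either of the other 2 libraries. The median of the members was 0.34 without replicate 1 and -0.61 without replicate 2 at 24 hpa, so its sign rests on which of them is used. Members such as *acta1* were far apart between the 24 hpa libraries themselves, at 42.4 and 252 CPM, as was *myh6* at 276 and 1606 CPM.

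Over the whole day, from 0 to 24 hpa, muscle genes fell in both stage 56 groups and in WT61, while TRDKO61 had 3 calls. In WT56, 41 of 44 fell (median log2 FC -2.15), beside 11.1% of all genes called lower and 7.67% higher, and 39 to 41 fell with any library left out. In TRDKO56, 37 fell (median -1.85), beside 9.29% and 5.35%, and 24 fell without replicate 1 at 0 hpa. In WT61, 30 fell (median -1.24), beside 4.79% and 3.86%, and 16 fell without replicate 1 at 24 hpa. In these 3 groups no member rose.

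Other tissue markers moved over the day as well. In WT56 9 of 13 leukocyte markers rose, while 6 of 11 neural markers fell and 1 rose, and 6 of 8 of notochord and cartilage fell. In TRDKO56 5 leukocyte markers rose, and 5 neural and 4 notochord and cartilage markers fell, with 1 of the latter higher. In WT61 2 leukocyte markers rose, 3 neural markers fell and 1 rose, and 4 of 8 of notochord and cartilage fell. In TRDKO61 6 leukocyte markers rose and 5 of 9 of notochord and cartilage fell. The summed share of notochord and cartilage went from 0.136% and 0.125% to 0.0273% and 0.0233% in WT56 and from 0.0379% and 0.0557% to 0.0183% and 0.0148% in WT61, and that of leukocytes from 0.0376% and 0.0321% to 0.103% and 0.136% and from 0.0760% and 0.0745% to 0.111% and 0.0972%. The part of these tissues in the muscle values was not tested.

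Of called members averaging at least 10 CPM, a myomesin had the largest fall over the day in each of these 3 groups. It was *myom2* in WT56 and WT61 and *myom1* in TRDKO56. In WT56 *myom2* went from 282 and 364 CPM at 0 hpa to 18.8 and 19.8 CPM at 24 hpa (log2 FC -4.10, SE 0.20, FDR 1.4e-07). In WT61 it went from 118 and 158 CPM to 12.6 and 17.2 CPM (log2 FC -3.23, SE 0.20, FDR 1.8e-06). In TRDKO56 it went from 133 and 122 CPM to 12.2 and 16.7 CPM (log2 FC -3.20, SE 0.40, FDR 0.0018). At 24 hpa all 6 of these libraries lay between 12.2 and 19.8 CPM, and they spread more widely at 0 hpa.

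The other leading falls in WT56 were *mybpc2* (log2 FC -3.93, SE 0.32), *myh13* (-3.71, SE 0.39), *des.2* (-3.64, SE 0.62) and *myom1* (-3.41, SE 0.23). *des.2* stood at 395 and 512 CPM and then at 41.7 and 32.9 CPM, and its call was lost without either 24 hpa library (highest FDR 0.0727). In TRDKO56 *myom1* went from 109 and 95.5 CPM to 8.01 and 8.87 CPM (log2 FC -3.65, SE 0.57), ahead of *mybpc2* (-3.52, SE 0.36) and *myh13* (-3.23, SE 0.26). The assembly factor *smyd1* went there from 40.7 and 38.2 CPM to 4.60 and 5.46 CPM (log2 FC -3.02, SE 0.27).

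In WT61 the next falls among members with a mean of at least 10 CPM were those of *myom1*, *mybpc1*, *mybpc2* and *myh6*. *myom1* went from 62.0 and 87.3 CPM to 8.80 and 14.3 CPM (log2 FC -2.74, SE 0.23), *mybpc1* from 80.0 and 139 CPM to 19.3 and 19.1 CPM (-2.52, SE 0.26), *mybpc2* from 21 and 29.4 CPM to 3.35 and 7.30 CPM (-2.35, SE 0.36), and *myh6* from 2028 and 1813 CPM to 341 and 448 CPM (-2.29, SE 0.23). By role, 9 of 12 genes of the thin filament fell there, 10 of 12 of the thick filament, 7 of 10 of the Z-disc and scaffold, 2 of 5 of calcium and coupling, 1 of 3 of energy supply and 1 of 2 of turnover and assembly.

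Among the members not called in WT61 were 3 with hardly any difference. *trim63* stood at 193 and 193 CPM at 0 hpa and at 160 and 200 CPM at 24 hpa (log2 FC -0.10, SE 0.14, FDR 0.67), *cacng1* at 37.1 and 40.7 CPM and then at 30.8 and 44.2 CPM (-0.07, SE 0.19, FDR 0.84), and *tnni1* at 21.6 and 18.4 CPM and then at 13.5 and 20.03 CPM (-0.27, SE 0.18, FDR 0.34). The libraries of the 2 time points overlapped for all 3. In WT56 *trim63* fell over the day, from 130 and 157 CPM to 72.9 and 64.5 CPM (log2 FC -1.09, SE 0.14, FDR 8.4e-05).

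In TRDKO61, 2 members rose and 1 fell over the day (median log2 FC -0.49), beside 3.24% of all genes called higher and 1.85% lower. At 2 and 1 of 44, the members' counts were near the shares of all genes. *actn2* rose from 10.6 and 10.9 CPM to 35.8 and 28.1 CPM (log2 FC 1.59, SE 0.19, FDR 0.0023), and *myh13* from 4.53 and 3.01 CPM to 12.6 and 11.7 CPM (log2 FC 1.67, SE 0.27, FDR 0.0086). *myh2* fell from 40.4 and 52.4 CPM to 10.9 and 10.4 CPM (log2 FC -2.10, SE 0.26, FDR 0.0028). The calls of *actn2* and *myh2* held with any of the 4 libraries left out. The count for the group as a whole depended on replicate 2 at 24 hpa, without which 20 members were called, 18 of them lower (median -1.04).

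**Figure D3:**
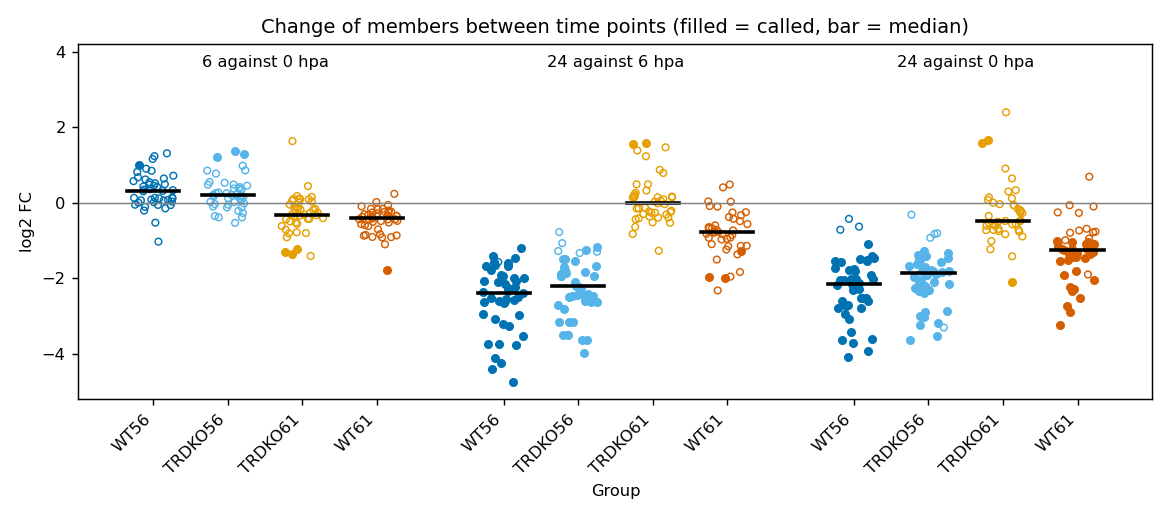
Log2 FC (y axis) of each member tested, by group, between 6 and 0, 24 and 6 and 24 and 0 hpa. Each dot is a member, filled where called, and each bar is the median, with *myh8* left out at stage 61 where its counts were 0 to 3. Between 24 and 6 hpa the medians were -2.39 in WT56 and -2.22 in TRDKO56 but -0.77 in WT61 and -0.02 in TRDKO61.

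Whether these changes differ between groups was tested on the difference itself. Between 6 and 24 hpa the log2 FC was higher in TRDKO61 than in TRDKO56 for 8 members, 2 of which (*myh13* and *actn2*) rose in TRDKO61, and lower for none (median difference 1.99 on the log2 scale), beside 0.547% of all genes called in that direction and 0.455% in the other. The difference was 5.22 for *myh13* (SE 0.48, FDR 0.0080), 4.12 for *mybpc2* (SE 0.42, FDR 0.0088) and 3.37 for *casq1* (SE 0.39, FDR 0.016). It was 3.89 for *myh3* (SE 0.65, FDR 0.045), 3.01 for *myoz1* (SE 0.49, FDR 0.037) and 2.64 for *actn2* (SE 0.48, FDR 0.048). For *tnnt1* it was 2.58 (SE 0.39, FDR 0.030) and for *ttn* 1.83 (SE 0.34, FDR 0.048). The count was 23 without replicate 1 and 3 without replicate 2 of TRDKO61 at 24 hpa, 13 and 3 without those at 6 hpa, 2 without replicate 1 of TRDKO56 at 6 or at 24 hpa and 3 without replicate 2 at 24 hpa. The call of *myh13* held with each of the 8 libraries left out (difference 4.64 to 5.59). That of *mybpc2* was lost without replicate 1 of TRDKO56 at 24 hpa. The calls of *actn2* and *ttn* were lost with 7 of the 8 left out in turn, and those of *myh3* and *myoz1* with 6. That of *tnnt1* was lost with 5 and that of *casq1* with 1.

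Between the stages of the wild type no member passed at that step (median difference 1.53), beside 0.0561% of all genes called higher and 0.0249% lower. With edgeR 37 members had an unadjusted p under 0.05, DESeq2 called 20, and edgeR called 21 without replicate 1 of WT61 at 6 hpa, 3 without replicate 1 of WT56 at 6 hpa and 1 without replicate 2 of WT61 at 6 hpa. Between WT61 and TRDKO61 no member passed either (median difference -0.80), and 0% of all genes did. There 2 members had an unadjusted p under 0.05 with edgeR and DESeq2 called 1. A difference between the responses of WT61 and TRDKO61 was thus not detectable with edgeR in these libraries. Shares of all genes are given for the main edgeR calls only. Counts by unadjusted p, with DESeq2 or with a library left out have no such share beside them. Whether they are particular to muscle genes can thus not be read from them.

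Over the whole day, 4 members had a less negative log2 FC in WT61 than in WT56 (median difference 0.79), beside 2.05% of all genes called in that direction and 0.994% in the other. They were *myh13* (2.57, SE 0.51, FDR 0.033), *myoz1* (1.74, SE 0.35, FDR 0.018), *casq1* (1.56, SE 0.32, FDR 0.020) and *tnni1* (1.48, SE 0.27, FDR 0.011). The count was 16 without replicate 1 of WT61 at 24 hpa, 2 without replicate 2 of WT56 at 24 hpa and 1 without replicate 2 of WT56 at 0 hpa. DESeq2 called 11.

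In TRDKO, 10 members differed over the day between the stages, all with the higher log2 FC at stage 61 (median difference 1.53), beside 1.3% of all genes called in that direction and 0.318% in the other. The differences were 4.90 for *myh13* (SE 0.37, FDR 0.0017), 3.51 for *myh3* (SE 0.38, FDR 0.0098) and 3.45 for *mybpc2* (SE 0.49, FDR 0.021). Next came *smyd1* (2.31, SE 0.36, FDR 0.021), *cacng1* (2.24, SE 0.26, FDR 0.0098) and *actn2* (1.91, SE 0.28, FDR 0.018). The smallest were *ldb3* (1.54, SE 0.26, FDR 0.025), *mybpc1* (1.51, SE 0.30, FDR 0.045), *ttn* (1.37, SE 0.27, FDR 0.043) and *cacna1s* (1.22, SE 0.23, FDR 0.039). The count was 22 without replicate 1 of TRDKO61 at 24 hpa, 2 without replicate 2 of TRDKO56 or replicate 1 of TRDKO61 at 0 hpa, 4 without replicate 1 of TRDKO56 at 0 or 24 hpa and 6 without its replicate 2 at 24 hpa. That of *myh13* held in all 8 (highest FDR 0.0183). Between WT61 and TRDKO61 no member passed over the day (median difference -0.96; 0.0121% of all genes called higher and 0.0242% lower), while 14 had an unadjusted p under 0.05 with edgeR, DESeq2 called 8, and 3 passed without replicate 1 of TRDKO61 at 24 hpa.

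The tails at 0 hpa show how muscle genes stood at the moment of amputation in the 2 stages. In WT, 17 of 44 members were lower at stage 61 and none was higher (median log2 FC -0.83), beside 7.05% of all genes called lower and 4.93% higher. In TRDKO, 26 were lower and none was higher (median -1.07), beside 6.61% and 3.66%. In WT the count was 11 without replicate 2 of WT56 at 0 hpa, the library with the fewest counts, and in TRDKO it was 20 to 29. Genes of notochord and cartilage were lower at stage 61 too (5 of 8 called in WT and 4 in TRDKO), with summed shares of 0.136% and 0.125% in WT56 against 0.0379% and 0.0557% in WT61. Of 11 neural markers, 7 were lower in TRDKO (median log2 FC -1.53) and 1 in WT (median -0.28), and none was higher. Of 7 fibroblast markers, 3 were lower in each genotype, with 2 higher in WT and none in TRDKO. Of 13 leukocyte markers, 5 were higher in WT and none in TRDKO. The part of these tissues in the muscle result was not tested. Of the 70 other muscle genes, 11 were lower and 1 higher in WT (median -0.37) and 15 lower and 3 higher in TRDKO (median -0.59).

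The stage difference was uneven within gene families. Of the genes described next, *myh3* and *myh13* lie in the stretch of chromosome 10 given above, and the others lie apart in UCB_Xtro_10.0, *tnni2* on chromosome 4 at 21784638 to 21792732, *des.2* on chromosome 5 at 82010430 to 82024259, and *myoz1* and *mybpc2* on chromosome 7 at 44119900 to 44141094 and 112193360 to 112254000. *tnni2*, fast troponin I, stood at 752 and 793 CPM in WT56 and at 136 and 124 CPM in WT61 (log2 FC -2.60, SE 0.16, FDR 1.2e-06). In TRDKO it stood at 591 and 606 CPM at stage 56 and at 61.9 and 53.4 CPM at stage 61 (log2 FC -3.40, SE 0.17, FDR 3.3e-07). The 8 libraries fell into separate stages in both genotypes. The related troponin I gene *tnni1.2* had a log2 FC of -0.90 in WT (SE 0.27, FDR 0.030) and -0.71 in TRDKO (SE 0.27, FDR 0.084), under the limit of the call.

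Among members with a mean of at least 10 CPM, *myoz1* had the largest difference in WT, from 58.9 and 43.2 CPM at stage 56 to 4.44 and 3.76 CPM at stage 61 (log2 FC -3.71, SE 0.30, FDR 1.4e-05), and -3.28 in TRDKO (SE 0.29). *mybpc2* went from 175 and 206 CPM to 21 and 29.4 CPM (log2 FC -2.94, SE 0.26, FDR 4.2e-05), and *myh3* from 648 and 710 CPM to 88.9 and 141 CPM (log2 FC -2.60, SE 0.21, FDR 7.5e-06). In TRDKO *myh3* stood at 371 and 292 CPM and at 32.2 and 34.0 CPM (log2 FC -3.35, SE 0.22). These genes were separate between the stages in every library of 0 hpa.

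*des.2* went from 395 and 512 CPM to 129 and 148 CPM in WT (log2 FC -1.74, SE 0.24, FDR 0.00039) and from 424 and 401 CPM to 48.5 and 26.5 CPM in TRDKO (log2 FC -3.48, SE 0.26, FDR 1.1e-05). The other desmin, *des.1*, had a log2 FC of -0.34 in WT (SE 0.21, FDR 0.26) and -0.55 in TRDKO (SE 0.21, FDR 0.086). *neb*, of the same thin filaments as *tnni2*, stood at 432 and 738 CPM in WT56 and at 463 and 778 CPM in WT61 (log2 FC 0.05, SE 0.28, FDR 0.92).

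The heavy chain *myh8* was near the limit of detection at stage 61, with 0 to 3 counts in each of the 12 libraries. At 0 hpa it stood at 3.204 and 5.52 CPM in WT56 and was at least 15.1-fold lower in WT61, and at 1.11 and 2.03 CPM in TRDKO56 and at least 5.75-fold lower in TRDKO61. At 6 hpa the bounds were 23.2-fold in WT and 12.8-fold in TRDKO. The bounds set each stage 61 library to the floor of 3 counts.

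The stage difference itself differed between the genotypes for 4 members, each with the more negative stage difference in TRDKO, and for none the other way (median difference 0.32), beside 2.27% of all genes called in that direction and 1.66% in the other. *myh13* stood at 50.3 and 44.8 CPM in WT56 and at 23.85 and 42.6 CPM in WT61, but at 60.2 and 86.9 CPM in TRDKO56 and 4.53 and 3.01 CPM in TRDKO61, a difference of 3.72 (SE 0.42, FDR 0.0022) that held with any of 8 libraries left out. *des.2* differed by 1.73 (SE 0.33, FDR 0.015), *myh7* by 3.26 (SE 0.82, FDR 0.040) at levels under 4 CPM, and *cacng1* by 1.28 (SE 0.26, FDR 0.017). With 1 library left out the difference ran from 1.39 to 2.26 for *des.2*, 2.56 to 4.48 for *myh7* and 1.01 to 1.61 for *cacng1*. All 3 calls were lost with all 24 libraries in 1 fit, and that of *myh7* also with DESeq2 and with the replicate block. The count was 1 without replicate 2 of TRDKO56 or replicate 1 of WT56 and 2 without replicate 2 of WT56, and without replicate 2 of WT61 there were 2 in this direction and 1 in the other.

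**Figure D4:**
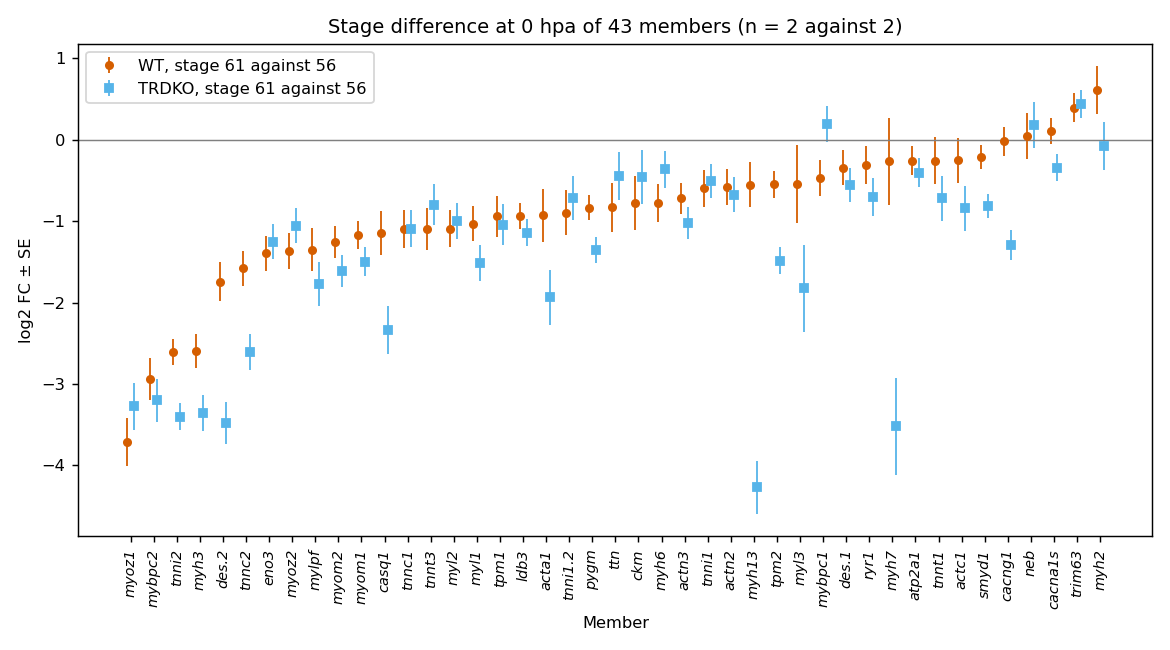
Log2 FC of stage 61 against stage 56 at 0 hpa (y axis) with its SE for 43 members (x axis), in WT and in TRDKO (2 colours), *myh8* left out. *myoz1*, *mybpc2*, *tnni2* and *myh3* lie at -2.60 or below in both genotypes, and *myh13* lies at -0.55 in WT and -4.27 in TRDKO.

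The genotypes were also compared directly at 0 hpa. At stage 56, 4 members were lower in TRDKO and none was higher (median log2 FC -0.60), beside 2.07% of all genes called lower and 0.973% higher. Titin stood at 2095 and 3777 CPM in WT56 and at 1266 and 1039 CPM in TRDKO56 (log2 FC -1.36, SE 0.30, FDR 0.020). *myom2* stood at 282 and 364 CPM against 133 and 122 CPM (log2 FC -1.35, SE 0.20, FDR 0.0026), and *ldb3* at 308 and 369 CPM against 159 and 148 CPM (log2 FC -1.15, SE 0.16, FDR 0.0018). *myh3* had a log2 FC of -1.04 (SE 0.20, FDR 0.011). The libraries were separate for each of the 4. Only 1 call was left without replicate 2 of WT56, and that of *ttn* was also lost without either TRDKO56 library (highest FDR 0.201). Epidermal markers were lower in TRDKO56 too (3 of 11 called), with a summed share of 0.567% and 0.550% in WT56 against 0.378% and 0.383%, as were those of notochord and cartilage (2 of 8 called), at 0.136% and 0.125% against 0.0912% and 0.0823%. Their part in the muscle result was not tested.

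At stage 61, 21 members were lower in TRDKO and none was higher (median -0.997), beside 6.26% of all genes called lower and 5.43% higher. *myh13* was 23.85 and 42.6 CPM in WT61 and 4.53 and 3.01 CPM in TRDKO61 (log2 FC -3.11, SE 0.32, FDR 0.00019). *des.2* was 129 and 148 CPM against 48.5 and 26.5 CPM (log2 FC -1.88, SE 0.24, FDR 0.00034), and *myh3* was 88.9 and 141 CPM against 32.2 and 34.0 CPM (log2 FC -1.80, SE 0.21, FDR 0.00013). *myom2* had a log2 FC of -1.70 (SE 0.20) and *casq1* of -1.68 (SE 0.30), and the libraries of all 5 were separate.

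Lower in TRDKO61 were further *acta1* and *actc1*, *tpm2*, *tnni2*, *mylpf*, *mybpc2*, *myh2*, *myh7*, *myl3*, *actn3*, *ldb3*, *myom1*, the coupling genes *ryr1*, *cacna1s* and *cacng1*, and *pygm*. *ckm* was 6878 and 5155 CPM in WT61 and 4596 and 4913 CPM in TRDKO61 (log2 FC -0.34, SE 0.33, FDR 0.46), and *tnni1.2* had a log2 FC of -0.02 (SE 0.27). The count was 13 without replicate 1 of TRDKO61 at 0 hpa. Neural markers were lower in TRDKO61 as well (7 of 11 called), with a summed share of 0.0164% and 0.0167% against 0.0240% and 0.0259% in WT61, and their part in the muscle result was not tested.

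At 24 hpa members were called in both directions between the stages. In WT, 3 of 43 members were higher and 2 lower at stage 61 (median log2 FC -0.08), beside 4.89% and 5.51% of all genes. These counts were near the shares of all genes. The ubiquitin ligase *trim63* stood at 72.9 and 64.5 CPM in WT56 and at 160 and 200 CPM in WT61 (log2 FC 1.39, SE 0.16, FDR 0.00069). *myh13* was higher (log2 FC 2.04, SE 0.32, FDR 0.0025), as was *myh2* (1.10, SE 0.25, FDR 0.011). Lower were *myoz1*, from 7.46 and 7.87 CPM to 1.53 and 2.57 CPM (log2 FC -1.95, SE 0.34, FDR 0.0035), and *myh3* (-1.43, SE 0.33, FDR 0.016). Without either WT56 library 3 members were called, and the calls of *myh2* and *myh3* were lost (highest FDR 0.0781 and 0.0866). Without replicate 2 of WT61 2 were higher and 3 lower.

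In TRDKO, 7 were higher and 2 lower at stage 61 at 24 hpa (median 0.40), beside 4.23% and 3.58% of all genes. Of the 43 members tested there, 31 had a positive log2 FC and 12 a negative one. *mybpc1* stood at 17.3 and 22.5 CPM in TRDKO56 and at 49.1 and 77.0 CPM in TRDKO61 (log2 FC 1.69, SE 0.22, FDR 0.0030). *neb* stood at 83.0 and 68.2 CPM against 178 and 258 CPM (log2 FC 1.55, SE 0.25, FDR 0.0076) and *atp2a1* at 258 and 128 CPM against 415 and 564 CPM (log2 FC 1.37, SE 0.34, FDR 0.032). *smyd1* (1.49), *actn2* (1.22), *tnnt1* (1.21) and *trim63* (1.07) were the other higher members. The call of *atp2a1* was lost without replicate 2 of TRDKO56 or either TRDKO61 library, with no filter and with the replicate block. Its log2 FC ran from 0.96 to 1.97 with each library left out. The call of *neb* was lost without replicate 2 of TRDKO56 (log2 FC 1.27 to 1.79 with each library left out). *des.2* stood at 141 and 104 CPM against 6.20 and 22 CPM (log2 FC -3.11, SE 0.73, FDR 0.034), a call lost without any of the 4 libraries, and *myoz1* had a log2 FC of -1.42 (SE 0.30, FDR 0.016). The count was 4 without replicate 1 and 2 without replicate 2 of TRDKO56. Without replicate 2 of TRDKO61 5 members were higher and 6 lower, and the median was -0.25.

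Within families, the paralog make-up differed between the stages for some families and overlapped for others. The families below were chosen after their values were seen, and each holds only genes of the list. The make-up is a description of the same counts as the tests above, without a test of its own. Fast troponin I made up 11.7% to 39.0% of the summed troponin I RPKM in the 12 stage 56 libraries and 1.81% to 9.68% in the 12 of stage 61, so the stages did not overlap. *mybpc2* made up 49.9% to 76.3% of the 2 myosin-binding protein C genes at stage 56 at 0 and 6 hpa, 29.2% to 42.4% there at 24 hpa and 2.49% to 29.4% at stage 61, so the stages met at 24 hpa.

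In some other families the ranges of the stages overlapped. Fast troponin C (*tnnc2*) made up 20.7% to 51.6% of the 2 troponin C genes at stage 56 and 17.3% to 31.1% at stage 61. *myom2* made up 58.7% to 71.2% of the 2 myomesins at stage 56 and 55.5% to 70.4% at stage 61. *tnnt3* made up 97.4% to 99.3% of the 2 troponin T genes and 95.8% to 98.7%. *acta1* made up 7.502% to 20.6% of the 2 sarcomeric actins at stage 56 and 4.12% to 12.4% at stage 61.

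*myoz1* made up 7.85% to 21.3% of the 2 myozenins in all stage 56 libraries and 1.05% to 6.97% at stage 61, and *myh3* made up 8.42% to 18.6% of the heavy chains and 1.00% to 11.4%, with an overlap. *des.2* made up 26.9% to 45.6% of desmin at stage 56 at 0 and 6 hpa and 2.42% to 15.4% at stage 61. At 24 hpa it was 9.28% and 9.46% in WT56 but 39.2% and 38.0% in TRDKO56, so the 2 genotypes of stage 56 were apart in this ratio. *actn2* made up 15.2% and 5.96% of the actinins in TRDKO61 at 24 hpa and 0.680% to 7.90% in the other libraries.

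**Figure D5:**
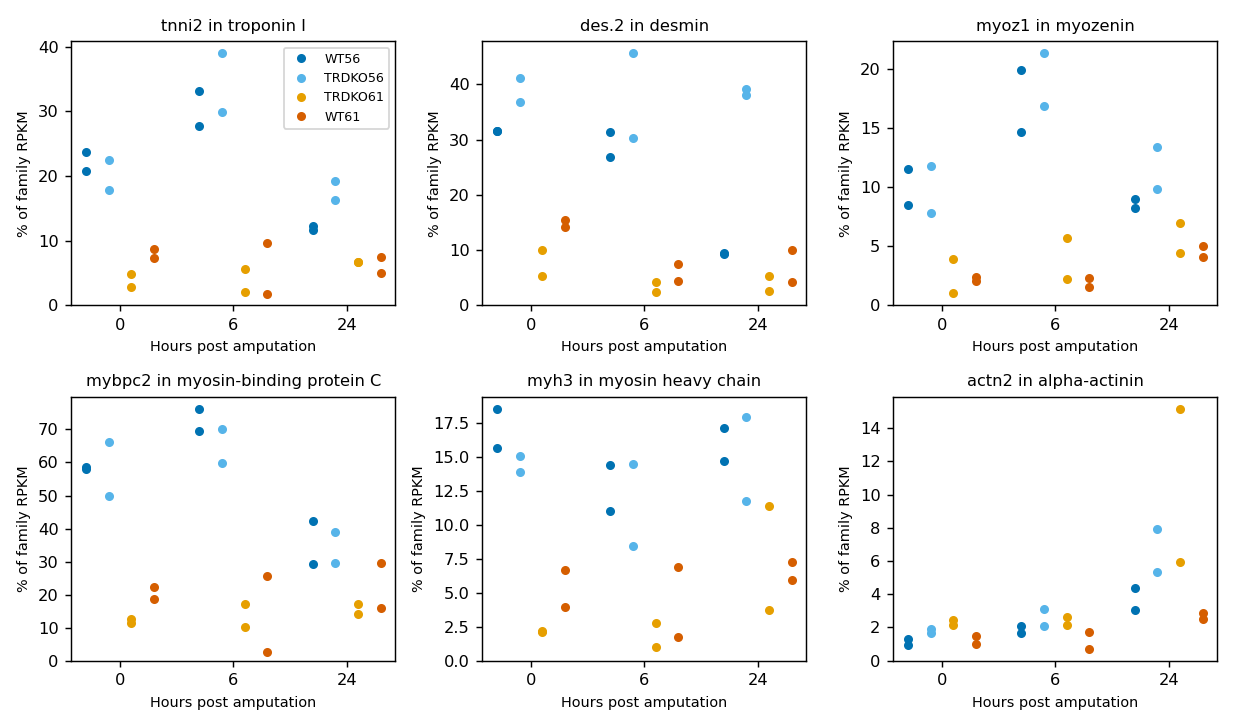
Share of a paralog in the summed RPKM of its family (y axis, percent) in the 12 conditions (x axis), for *tnni2*, *des.2*, *myoz1*, *mybpc2*, *myh3* and *actn2*. Each dot is a library. *tnni2* lies at 17.9% to 39.0% at stage 56 at 0 and 6 hpa and at 1.81% to 9.68% at stage 61, and *des.2* at 24 hpa lies at 9.28% and 9.46% in WT56 and at 39.2% and 38.0% in TRDKO56.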

How the data were processed

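RNA from amputated tails was sequenced as 24 libraries of 12 conditions. The deposited values are whole-number counts per gene that the authors made without normalization. The submitters' processing notes name cutadapt 3.2, STAR 2.7.7a and featureCounts (Subread 2.0.1). The strand option and the treatment of reads shared by paralogs are not given in the sources used here. Column labels of the counts carry the tag markdups, for marked duplicates. Whether marked reads were counted is not given. Exons of *tpm1*, *mybpc1* and *cacng1* overlap a gene on the other strand. The row of *neb*, like 1 other, was broken over lines and was rejoined. Gene starts and ends of all 46 members equalled those of RefSeq UCB_Xtro_10.0. Promoter motifs were not analysed here.

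Counts were tested with edgeR 4.0.16 (R 4.3.3, with statmod 1.5.0 and limma 3.58.1), using filterByExpr, TMM factors and robust quasi-likelihood fits to 8 libraries, namely 1 genotype at a pair of time points with both stages, or 1 time point with all groups, or WT61 and TRDKO61 at a pair of time points. CPM and RPKM used TMM factors over all 24 libraries and the length column of the table. Between 15909 and 16509 genes were tested. The SE is the log2 FC divided by the square root of F. Where no library of an arm exceeded 3 counts, only a bound on the fold is given. Members, roles and lists of 70 other muscle genes and of tissue markers were chosen with earlier results of these data known. Every member is named once. In each comparison up to 5 called members are named with the largest log2 FC, averaging 10 CPM or more, whose libraries did not overlap between arms (up to 3 a direction where both occur), with all heavy chains. Others named were chosen after their values were seen.

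Alternatives were RLE and upper-quartile scaling, TMM without the members, no filter and DESeq2 1.42.0. Further ones were all 24 libraries in 1 fit, a replicate block and no fold limit. Each library of the groups compared was also left out in turn. The other libraries of a fit, which also set its spread, were not left out. Simulated data with 200 changed genes served to check the tests. Counts were drawn with 1 fixed spread for every gene, not estimated from these libraries. The numbers recovered thus do not give the power of the tests in these data. edgeR recovered 184 with 7 false calls for 24 against 6 hpa in WT56 (16049 genes), 177 with 9 for the stages of WT at 0 hpa (15925 genes), and 133 with 9 for the difference between WT61 and TRDKO61 (16320 genes).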

Additional observations from a re-analysis of the deposited data

Results flagged for a closer look

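Results in which the test of a difference between groups itself called members are listed here with their values. The stage difference at 0 hpa differed between WT and TRDKO for 4 members (*myh13*, *des.2*, *myh7* and *cacng1*), each with the more negative value in TRDKO, beside 2.27% of all genes in that direction, and for 1 member at the fewest with 1 library left out. The change from 6 to 24 hpa differed between TRDKO61 and TRDKO56 for 8 members (2 at the fewest with 1 library left out), led by *myh13*, *mybpc2* and *myh3*, beside 0.547% of all genes. The change from 0 to 24 hpa differed between WT61 and WT56 for 4 members (*myh13*, *myoz1*, *casq1* and *tnni1*; 1 at the fewest), beside 2.05% of all genes, and between TRDKO61 and TRDKO56 for 10 (2 at the fewest), led by *myh13*, *myh3* and *mybpc2*, beside 1.3%. *myh13* was thus called in all 4 of these tests, which share libraries with each other, at a level of 3.01 to 129 CPM. Its call between WT61 and WT56 was lost without any 1 of the 4 WT56 libraries and with all 24 libraries in 1 fit. For the stage difference at 0 hpa, the calls of *des.2*, *myh7* and *cacng1* were lost with all 24 libraries in 1 fit. That of *myh7* was also lost with DESeq2 and with the replicate block. The Dixon test for a library far from the others was not run, since each group holds 2 libraries.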

How the results depend on the processing

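No called member reversed its direction under any of the alternatives. Of 312 called member results, 312 were kept with TMM factors computed without the members and with no limit on the fold change, 309 with RLE factors, 309 with DESeq2, 307 with upper-quartile scaling, 291 with the replicate block, 279 with no filter and 255 with all 24 libraries in 1 fit. With 1 library left out, 953 of 1352 were kept. The cause of the changes below was not tested. Shares of all genes called under these settings are not given, so the counts cannot be read against them.

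For 6 against 0 hpa in WT56 the count of 1 became 0 with RLE, with upper-quartile scaling and with no filter, and 2 with all 24 libraries and with DESeq2, whose 2 calls do not include *myoz1*. All 24 libraries in 1 fit gave 1 for TRDKO61 and 0 for WT61 at that step, 1 for TRDKO61 from 6 to 24 hpa, 11 for the stages of WT at 0 hpa, 3 at 24 hpa, 1 for the genotypes at stage 56 and 1 for the stage difference between genotypes. It gave 4 and 25 for the differences between stages of WT and TRDKO from 6 to 24 hpa, and 0 and 4 from 0 to 24 hpa. DESeq2 gave 2 for WT61 from 0 to 6 hpa and 8 from 6 to 24 hpa. For the differences of changes it gave 20 (WT), 30 (TRDKO) and 1 (WT61 minus TRDKO61) from 6 to 24 hpa, and 11, 23 and 8 from 0 to 24 hpa. With no filter the stage difference between genotypes gave 7, the stages of WT gave 3 from 6 to 24 hpa and 11 from 0 to 24 hpa, and WT61 minus TRDKO61 gave 1 from 0 to 24 hpa. With no limit on the fold change, 9 members passed between genotypes at stage 56. Divided by TMM effective sizes, the mean member share was 5.43% in WT56 at 0 hpa, 5.95% at 6 hpa and 1.496% at 24 hpa, and 1.17% in TRDKO56 at 24 hpa.

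Of 90 calls of members named in the report by the naming rule or in a test of a difference, all 24 libraries in 1 fit ended 25, no filter on low counts 10, the replicate block 10, RLE 2, DESeq2 2 and upper-quartile scaling 1. Among those ended with no filter were *mybpc2* and *myh13* from 6 to 24 hpa in WT56. The replicate block ended, among others, that of *acta1* from 0 to 6 hpa in TRDKO61.

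With the replicate block the difference between TRDKO61 and TRDKO56 from 6 to 24 hpa gave 4 members, and that between WT61 and TRDKO61 from 0 to 24 hpa gave 2. Other counts moved by less than 1.5 times. The replicate numbers were not treated as pairs. Same-numbered libraries of 66 pairs of conditions had correlations of their deviations from -0.286 to 0.275 over 15209 genes, 9 of them over 0.1 and 12 under -0.1. Between groups at 6 hpa they ran from -0.178 (WT56 and TRDKO61) to 0.275 (WT56 and TRDKO56). Whether same-numbered libraries of a time point were handled together was not tested.

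With 1 library left out, the counts from 0 to 6 hpa ranged from 0 to 1 in WT56, 0 to 3 in TRDKO56, 0 to 7 in TRDKO61 and 0 to 17 in WT61. From 6 to 24 hpa they ranged from 25 to 39, 15 to 25, 0 to 1 and 0 to 8, and from 0 to 24 hpa from 39 to 41, 24 to 29, 3 to 20 and 16 to 35, in the same order of groups. Between stages they ranged from 11 to 19 in WT and 20 to 29 in TRDKO at 0 hpa and from 3 to 6 and 2 to 11 at 24 hpa, and between genotypes from 1 to 4 at stage 56 and 13 to 21 at stage 61. The stage difference between genotypes ranged from 1 to 5. The differences of changes from 6 to 24 hpa ranged from 0 to 21 (WT), 2 to 23 (TRDKO) and 0 to 0 (WT61 minus TRDKO61), and those from 0 to 24 hpa from 1 to 16, 2 to 22 and 0 to 3. The members together took at least 165179 counts of each library. Single members had far fewer in their lowest library, such as 14 for *myoz1* and 21 for *mybpc2*. *myh4*, *pvalb*, *myh8* and *myl3* had 0 counts in at least 1 library. Whether depth or the spread between libraries limits the calls more was not tested.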

Other observations

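The 70 other muscle genes include genes of the Z-disc, the costamere, the triad, metabolism and the endplate. From 0 to 24 hpa 51 fell in WT56 (median log2 FC -1.74) and 51 in TRDKO56 (median -1.65), with 1 and 2 higher. In WT61 38 fell and 2 rose over the day (median -1.06), and in TRDKO61 5 fell and 5 rose (median -0.30). At 0 hpa 23 were lower and 1 higher in TRDKO61 than in WT61 (median -0.79), and 7 were lower and none higher in TRDKO56 than in WT56 (median -0.54). At 24 hpa 17 were higher at stage 61 than at stage 56 in TRDKO and none was lower (median 0.51), against 5 higher and none lower in WT (median 0.04).

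Markers of fibroblasts took a lower share at 24 than at 0 hpa in every group, from 1.58% and 1.72% to 0.746% and 0.760% in WT56, from 1.72% and 1.77% to 1.04% and 1.04% in TRDKO56, from 0.982% and 1.10% to 0.775% and 0.880% in TRDKO61, and from 1.13% and 1.13% to 0.979% and 0.744% in WT61. Markers of endothelium lay between 0.00477% and 0.0136% in all 24 libraries. From 0 to 24 hpa 3 of 5 were called lower in TRDKO56 (median log2 FC -1.15). None was called in WT56 (median -0.68), WT61 (median -0.34) or TRDKO61 (median 0.03). Their part in the muscle values was not tested.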
